A study of Mus musculus with 3 samples.

Results

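The replication-dependent histone cluster of mouse chromosome 13 was taken as all protein-coding genes of that chromosome whose GENCODE release M21 symbol begins with Hist1h, which gave 54 of 21951 protein-coding genes (GRCm38). The deposited table holds 1186323 valid windows of 2 kb, and 79 of the 86 windows that overlap these genes are among them. At least 1 valid window was present for 49 genes. Hist1h2bq, Hist1h2ao, Hist1h4m, Hist1h2ap and Hist1h2br had none and therefore no value, and the pseudogenes Hist1h2aj and Hist1h2al were left out. H3K36me3 was measured by native ChIP-seq from very few cells in 3 pools of about 280 germinal vesicle (GV) oocytes, which are fully grown oocytes with an intact nucleus, from wildtype C57BL6/Babr mice aged 25 days. Every sample belonged to this group, and the second pool was precipitated with less antibody than the other two. Calls for H3K4me3 and H3K27me3 came from earlier libraries of the same laboratory, with 1 call per window and no replicates.

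Replication-dependent histone genes supply the linker histone H1 and the core histones H2A, H2B, H3 and H4 for the packaging of newly copied DNA. They are short and mostly lack introns, and their mRNA carries no poly(A) tail but ends just after a small stem-loop that is bound by the protein SLBP. H3K36me3 is placed on gene bodies during transcription elongation, H3K4me3 marks promoters and in oocytes also forms broad domains, and H3K27me3 is the mark of Polycomb repression.

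The genes lay between positions 21715763 and 23934851, a span of 2.22 Mb, in 4 sub-clusters when genes at most 100 kb apart were joined. Sub-cluster 1 held 18 genes in 122 kb, sub-cluster 2 held 5 genes in 8.51 kb, sub-cluster 3 held 29 genes in 233 kb, and sub-cluster 4 held the germ line pair Hist1h2ba and Hist1h2aa. The median annotated length was 532 bases, 41 genes were no longer than 1 kb and 49 of the 54 had a single exon. A 2-kb window is thus longer than most of these genes and also covers what lies beside them, and 28 genes shared a window with another Hist1h gene. Along the chromosome 12 pairs of genes started back to back within 1 kb, 11 of them an H2A gene beside an H2B gene, with a median of 268 bases between the annotated ends.

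The stem-loop is the feature that defines the family, and it is shown for 3 genes above the H3K36me3 threshold, for a pair of genes without a read, and for Hist1h4a as another version of its bases. It was searched in the 120 bases after the stop codon as 16 bases with GG at the front and CC at the end, at least 5 complementary pairs in the stem, and a loop of 4 bases that starts with T, goes on with pyrimidines and does not close with G. It was found in 53 of 54 Hist1h genes (98.1%), the exception being Hist1h2an, and in 1 of 774 other protein-coding genes of chromosome 13 (0.129%). There were 7 different versions, and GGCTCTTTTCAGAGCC was present in 33 genes. The median distance from the stop codon was 30 bases. The capitals below mark the 16 bases.
Hist1h1e (chr13:23621777-23621802, minus strand): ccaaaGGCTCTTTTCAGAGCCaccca
Hist1h2bn (chr13:21754528-21754553, plus strand): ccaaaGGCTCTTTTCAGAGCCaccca
Hist1h2bc (chr13:23684642-23684667, plus strand): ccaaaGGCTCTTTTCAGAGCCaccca
Hist1h2bm (chr13:21722501-21722526, plus strand): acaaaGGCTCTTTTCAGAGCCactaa
Hist1h2ae (chr13:23570663-23570688, minus strand): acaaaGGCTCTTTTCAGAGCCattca
Hist1h4a (chr13:23760795-23760820, minus strand): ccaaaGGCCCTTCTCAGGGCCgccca
The stem-loop of Hist1h1e, the gene with the highest H3K36me3 level, had the same 16 bases as those of Hist1h2bm and Hist1h2ae, which had no read in any replicate.

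H3K36me3 was low over most Hist1h genes. A gene's level was the mean RPKM of its valid windows, where RPKM is the name that the authors gave to window reads after correction for library depth. The median of the 49 gene levels was 0.370 (quartiles 0.226 and 0.543), beside 1.11 over all protein-coding genes with a value and 0.404 over other protein-coding genes of at most 2 kb. A mean RPKM above 1, which is the study's threshold for enrichment, was reached by 5 Hist1h genes (10.2%), beside 52.5% of all protein-coding genes and 22.0% of the short ones. In single replicates 7, 12 and 6 genes were above 1, and 3 genes were above 1 in every replicate. These levels rest on few reads, with 659 reads in the 79 windows over the 3 libraries and a median of 6 per gene. No read was found in 4 of the windows, beside 4.74% of all valid windows. A single read is worth 0.136, 0.396 and 0.338 RPKM in replicates 1, 2 and 3, so that 8, 3 and 3 reads take a window past the threshold. In pooled oocytes, a lower level in every cell and the mark in fewer cells cannot be told apart.

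**Figure D1:**
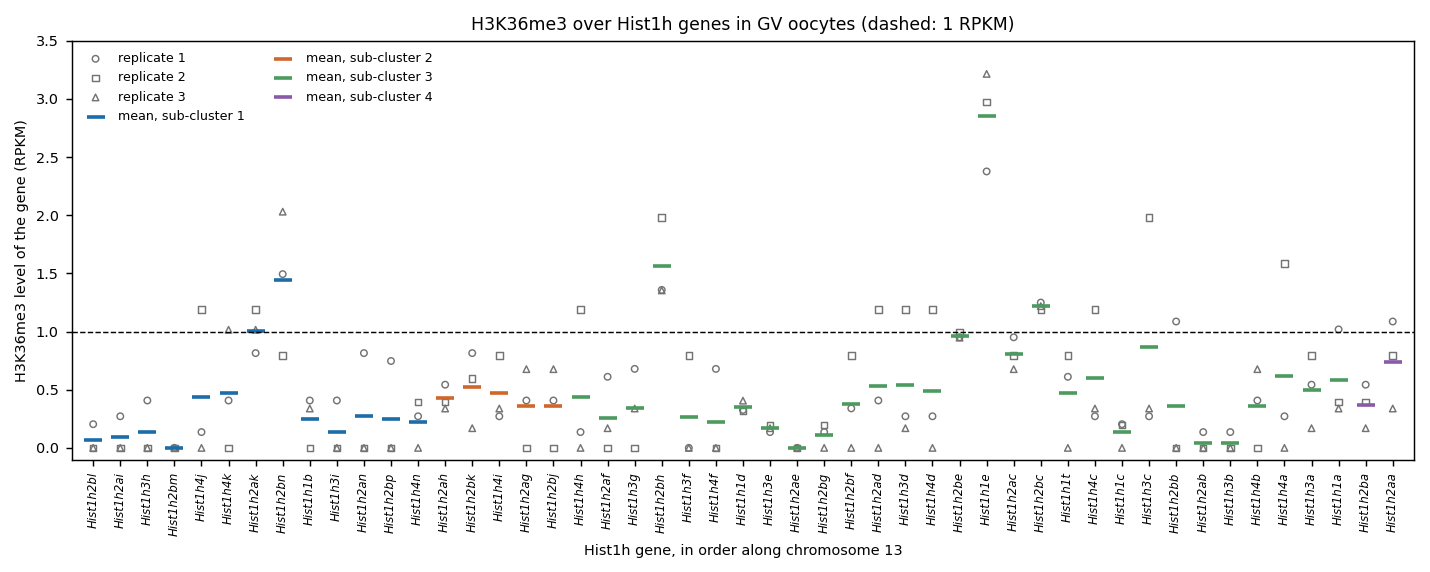
H3K36me3 level in RPKM (linear axis) of the 49 Hist1h genes with a valid window, in order along chromosome 13, with open symbols for the 3 replicates and bars for their mean, coloured by sub-cluster. Only Hist1h2ak, Hist1h2bn, Hist1h2bh, Hist1h1e and Hist1h2bc have a mean above the dashed line at 1 RPKM.

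The highest level was that of Hist1h1e, which encodes a linker histone. It measured 2.38, 2.97 and 3.21 RPKM in replicates 1, 2 and 3, a mean of 2.85 ± 0.43 (SD, n = 3) from 69 reads. All replicates were above the threshold, and the exact Poisson 95% interval of its pooled reads ran from 2.09 to 3.40 RPKM. Hist1h2bh, an H2B gene, measured 1.36, 1.98 and 1.35 RPKM, a mean of 1.56 ± 0.36. Its signal was unequal, at 2.62 RPKM in the window with its annotated 3′ end. The window with its coding sequence had 0.513 RPKM. Most of the window with the 3′ end lies past the gene, and its reads cannot be assigned to the gene alone. The window next to it on that side, without a Hist1h gene, had 1.23 RPKM. Hist1h2bc, also an H2B gene, measured 1.25, 1.19 and 1.22 RPKM, the smallest spread among these genes (mean 1.22 ± 0.03). Here too the window with the coding sequence was low, at 0.271 RPKM, and 3 of its 5 windows were called for H3K36me3, each of them downstream of the coding window.

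The remaining genes above 1 were the back-to-back pair Hist1h2ak and Hist1h2bn, which lie in neighbouring windows of sub-cluster 1. Hist1h2bn, an H2B gene, measured 1.49, 0.793 and 2.03 RPKM, a mean of 1.44 ± 0.62 from 19 reads. Hist1h2ak, an H2A gene, measured 0.815, 1.19 and 1.02 RPKM, a mean of 1.01 ± 0.19 from 12 reads. Each had a replicate below 1, and the Poisson intervals of their pooled reads (0.891 to 2.31 and 0.483 to 1.63 RPKM) included 1. When only windows with coding sequence were used, an alternative chosen after seeing the data, 3 genes (6.12%) were above 1, namely Hist1h2ak, Hist1h2bn and Hist1h1e.

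Hist1h2be, an H2B gene with an annotated span of 37455 bases, was just below the threshold at 0.951, 0.991 and 0.948 RPKM, a mean of 0.963 ± 0.024. The 5 windows of its 5′ side measured 2.50, 2.77 and 2.91 RPKM and were all called for H3K36me3. The other 15 windows, including the coding window, measured 0.435, 0.396 and 0.293 RPKM, with 1 window called for H3K36me3 and 12 for H3K4me3. This division was made after seeing the values. The most 5′ window is shared with Hist1h1e and with the pseudogene Gm11398, and the files cannot assign its reads among these 3 genes. In its window without another annotated gene, Hist1h1e had 2.40 RPKM.

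Genes whose annotation runs far past the stem-loop were described apart from those that end near it. Of 7 genes with a value and more than 1000 annotated bases past the stem-loop, 3 were above 1 (Hist1h2bh, Hist1h1e and Hist1h2bc), with a median level of 0.963 RPKM and a range from 0.249 (Hist1h2bp) to 2.85. Of 33 genes that ended at most 200 bases past it or before it, 2 were above 1, with a median of 0.361. The 8 genes between these limits had a median of 0.455 and none above 1. The lengths were chosen after seeing the levels, and this division is a description without a test. The median level was that of Hist1h2be. Its 15 windows on the 3′ side, most of them upstream of the stem-loop, measured 0.375 RPKM. The 5 windows of its 5′ side measured 2.73 RPKM. Its window with the stem-loop measured 0.335 RPKM. The window past that, shared with Hist1h4d, measured 0.619 RPKM. Hist1h1e measured 2.40 RPKM in its window upstream of the stem-loop. In Hist1h2bh and Hist1h2bc the windows called for H3K36me3 lay downstream of the coding window. A gene's level is a mean over all its windows, on either side of the stem-loop, and the place of the mark relative to the stem-loop was not tested.

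The 5 lowest levels were at core histone genes, which are all but 6 of the 49 genes with a value. Hist1h2bm, an H2B gene, and Hist1h2ae, an H2A gene, had 0 reads in every replicate, and a count of 0 allows up to 0.234 pooled RPKM in their single windows. Hist1h2ab and Hist1h3b, an H2A and an H3 gene, lie in neighbouring windows with 1 read each, both at 0.136, 0 and 0 RPKM. Hist1h2bl, an H2B gene, had 3 reads, at 0.204, 0 and 0 RPKM. In each of these windows replicates 2 and 3 held no read, and 19 of the 49 genes had at most 5 reads, so that an order among the low genes could not be read at this depth.

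Replicates differed most at genes in a single window. Hist1h3c, an H3 gene, measured 0.272, 1.98 and 0.338 RPKM, and Hist1h4a, an H4 gene, measured 0.272, 1.59 and 0 RPKM. Hist1h4j and Hist1h4h each measured 0.136, 1.19 and 0 RPKM. In all 4 genes the high value was that of replicate 2, the library with the fewest reads and the pool precipitated with less antibody. Depth and antibody amount cannot be told apart here. Hist1h2bb, an H2B gene, differed the other way, with 1.09 RPKM in replicate 1 and 0 in the others.

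The germ line variants of the cluster were also below the threshold. Hist1h1t, the testis linker histone, measured 0.611, 0.793 and 0 RPKM (mean 0.468 ± 0.415). Hist1h2ba and Hist1h2aa, the H2B and H2A variants known from testis and egg, measured 0.370 ± 0.188 and 0.739 ± 0.377 RPKM. They share a window, and their other window, in Hist1h2ba only, held no read. Hist1h2aa was above 1 in replicate 1, at 1.09 RPKM, and below it in the others.

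By class, 1 of 6 H1 genes, 1 of 11 H2A genes and 3 of 13 H2B genes with a value were above 1, and 0 of 9 H3 and 0 of 10 H4 genes were. The median gene level was 0.409 RPKM for H1, 0.361 for H2A, 0.370 for H2B, 0.264 for H3 and 0.455 for H4. The range of these medians was smaller than that between the replicates of H3 or H4. The H4 windows measured 0.306, 0.826 and 0.226 RPKM and the H3 windows 0.324, 0.549 and 0.130 RPKM. Classes share windows, and no test between them was made.

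The next question was whether the mark is lower over Hist1h genes than beside them and over other genes. The 79 Hist1h windows measured 0.676, 0.687 and 0.553 RPKM, a mean of 0.639 ± 0.075. The 51 windows with coding sequence measured 0.541, 0.536 and 0.338 RPKM, and the 58 windows left without those of Hist1h2be and Hist1h1e had a mean of 0.496 ± 0.106. Windows of all other protein-coding genes had a mean of 1.31 ± 0.03. The log2 ratio of Hist1h windows to these was -0.93, -0.92 and -1.28 in replicates 1, 2 and 3, a mean of -1.04 ± 0.21, and lower in 3 of 3 replicates. In a two-sided exact permutation test that flipped the signs of the replicate values, p was 0.25 (adjusted p = 0.25 over 3 contrasts), the smallest p that 3 replicates allow.

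Against windows of other short protein-coding genes (0.691 ± 0.029 RPKM) the log2 ratio was -0.072, -0.036 and -0.25, a mean of -0.12 ± 0.12 (exact p = 0.25, adjusted p = 0.25). This difference was lower in 3 of 3 replicates and about the size of its spread, and it turned to 0.062 when Hist1h windows with many stretches in common with another histone gene were left out, and to 0.14 when only windows with their midpoint in a gene were used. With coding windows alone it was -0.58. Against windows at the start of other protein-coding genes, which measured 0.701 ± 0.036 RPKM, the mean log2 ratio of all Hist1h windows was -0.14, an alternative added after seeing the data.

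Against the 88 windows between Hist1h genes of the same sub-cluster (0.923 ± 0.070 RPKM) the log2 ratio was -0.45, -0.31 and -0.84, a mean of -0.54 ± 0.28 (exact p = 0.25, adjusted p = 0.25). The 25 windows between Hist1h1e and Hist1h2ac had 1.67, 1.54 and 2.21 RPKM, and 21 of them were called for H3K36me3. The other 63 windows had 0.632, 0.579 and 0.510 RPKM, and 15 were called. Without this space the ratio turned to 0.15, without the windows of Hist1h2be and Hist1h1e it was -0.92, and with coding windows alone it was -0.998. Without both the space and the windows of these 2 genes it was -0.19, -0.047 and -0.45 in replicates 1, 2 and 3, a mean of -0.23 ± 0.21. These alternatives were chosen after seeing the data.

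**Figure D2:**
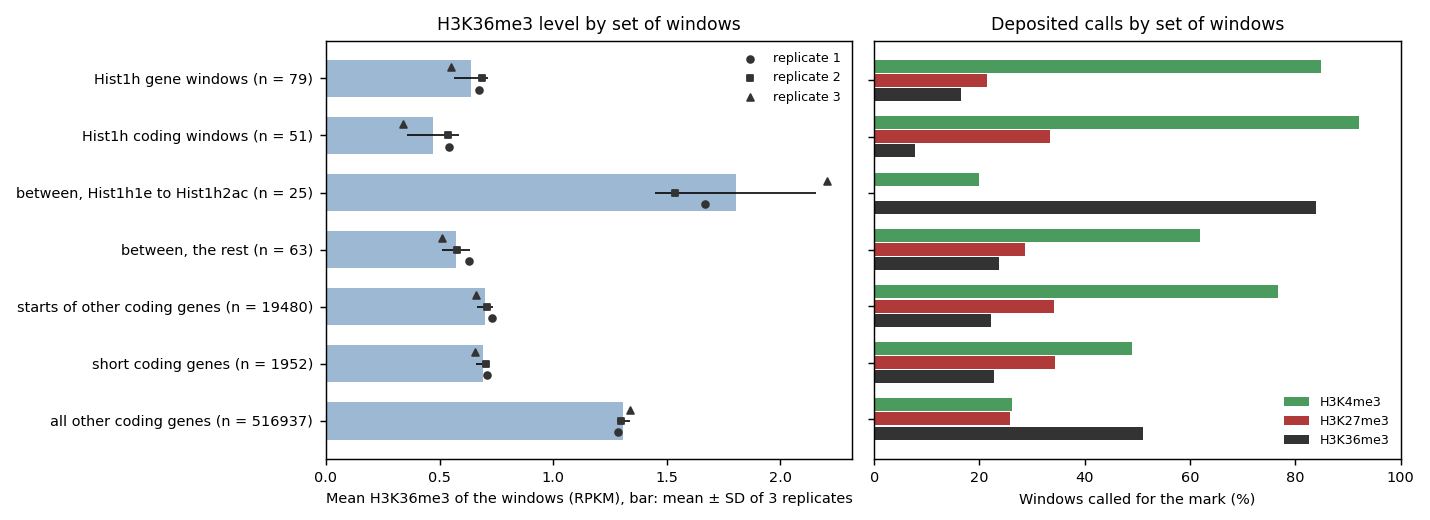
Left, mean H3K36me3 in RPKM of sets of 2-kb windows, with symbols for the 3 replicates and bars and error bars for their mean ± SD; right, the percent of the same windows called for H3K4me3, H3K27me3 and H3K36me3. Hist1h gene windows sit near the start windows of other coding genes in level and above them in H3K4me3 calls, and the space between Hist1h1e and Hist1h2ac has the highest level of the sets shown, 1.80 RPKM.

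H3K4me3 was the prevailing mark of the genes. It was called in 67 of 79 Hist1h windows (84.8%), beside 28.3% of all valid windows, 76.8% of windows at the start of other protein-coding genes and 49.0% of windows of short ones. Of the 49 genes, 47 (95.9%) had a window with the call, the exceptions being Hist1h4k and Hist1h2bn, beside 85.4% of all protein-coding genes with a value and 52.3% of the other short ones. H3K4me3 in every valid window and neither other mark was found at 25 Hist1h genes (51.0%), beside 1.78% of all protein-coding genes and 15.8% of the short ones. Both shares depend on the number of windows in a gene, which is larger for most other genes. H3K27me3 was called in 17 windows (21.5%), beside 30.0% of all windows, 34.2% of start windows and 34.3% of windows of short genes. H3K36me3 was called in 13 windows (16.5%), beside 31.8% of all windows, 22.1% of start windows and 22.8% of windows of short genes. In windows with coding sequence the counts were 47 of 51 for H3K4me3 (92.2%), 17 for H3K27me3 (33.3%) and 4 for H3K36me3 (7.84%). No mark was called in 6 windows, beside 26.6% of all windows. The H3K36me3 call is the RPKM threshold itself and adds nothing to the levels above.

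The H3K4me3 calls ran on beyond the genes. The longest unbroken run was 52 kb and held Hist1h4h, Hist1h2af, Hist1h3g, Hist1h2bh and Hist1h3f. Runs of 30 kb and 26 kb held 4 genes each, and a run of 12 kb covered all 5 genes of sub-cluster 2. Of the 67 Hist1h windows with the call, 49 (73.1%) lay in runs of at least 5 windows, beside 53.8% of all windows with the call in the genome. Between the genes of a sub-cluster 44 of 88 windows had it. The share was 63.6% in windows within 2 kb of a Hist1h gene and 62.7% at 20 to 40 kb. In the same 88 windows H3K27me3 was called in 18 (20.5%), beside 21.5% of Hist1h windows and 30.0% of all windows. H3K36me3 was called in 36 (40.9%), beside 16.5% of Hist1h windows and 31.8% of all windows, and 21 of the 36 lay between Hist1h1e and Hist1h2ac. Hist1h windows held a mean of 45.2 CpG sites, beside 15.1 in the windows between and 16.7 over the valid windows of chromosome 13, and the part of CpG content in the calls was not tested.

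H3K27me3 calls were spread unequally over the sub-clusters, a count without a test. The mark was called in 10 of 14 Hist1h windows of sub-cluster 1 and in 7 of 59 of sub-cluster 3, and in 0 of 4 and 0 of 2 of sub-clusters 2 and 4. The longest run, 18 kb in sub-cluster 1, held Hist1h1b, Hist1h3i, Hist1h2an and Hist1h2bp, and its H3K36me3 level was 0.573, 0 and 0.188 RPKM. In 14 of the 17 windows H3K27me3 was called together with H3K4me3 and without H3K36me3. This is 14 of the 79 Hist1h windows, beside 8.94% of all windows. The same combination was called in 335 of 1952 windows of other short genes and in 5012 of 19480 start windows. The windows of Hist1h2ak and Hist1h2bn carried both H3K27me3 and H3K36me3, and that of Hist1h2ak had all 3 marks.

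**Figure D3:**
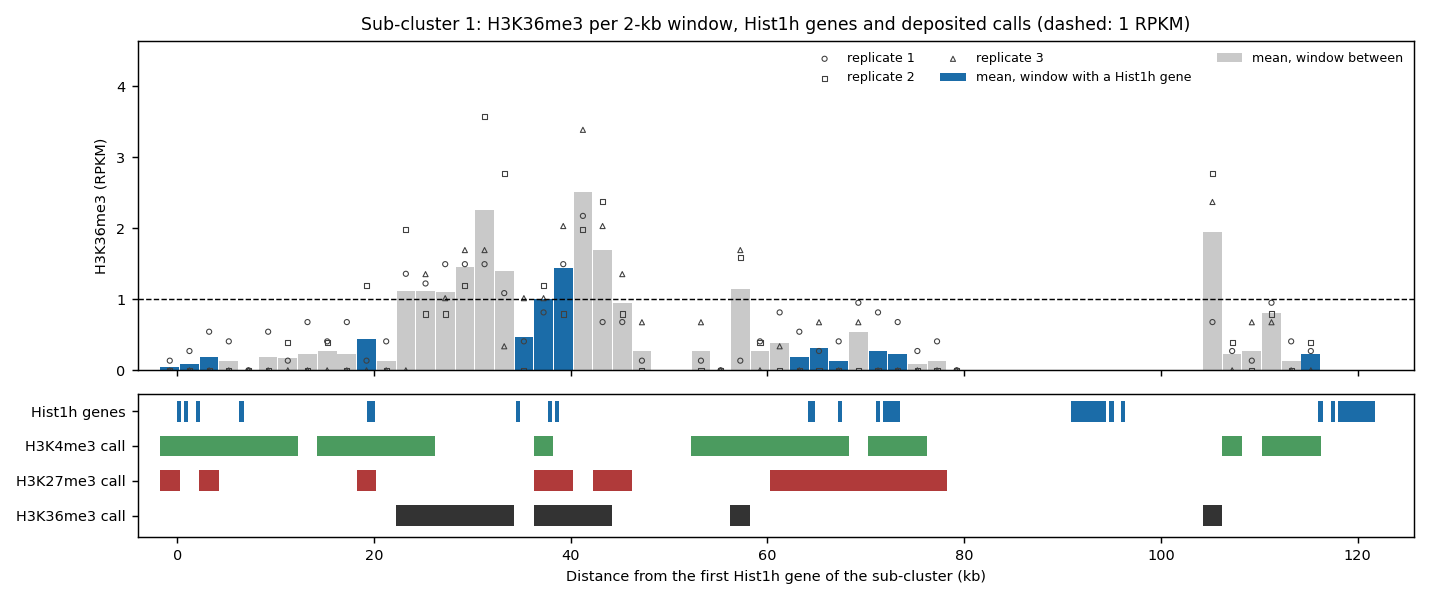
Sub-cluster 1, by distance in kb from its first Hist1h gene; the upper panel gives H3K36me3 in RPKM per 2-kb window (bars, mean; symbols, 3 replicates; blank stretches are windows that are not valid), and the lower panel gives the genes and the deposited calls. Windows above 1 RPKM lie mainly in runs of 12 kb and 8 kb, the second with Hist1h2ak and Hist1h2bn, while the windows of the other Hist1h genes are low.

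Sub-cluster 1 had 0.485, 0.255 and 0.338 RPKM in its Hist1h windows (mean 0.359 ± 0.117) and 0.691 ± 0.044 in the windows between. Of its 12 windows called for H3K36me3, 10 lay in a run of 12 kb without a Hist1h gene (1.41 ± 0.42 RPKM) and in a run of 8 kb with Hist1h2ak and Hist1h2bn (1.66 ± 0.42 RPKM). The others were single windows of 2 kb without a Hist1h gene, at 1.14 ± 0.87 and 1.94 ± 1.11 RPKM. Sub-cluster 2 had 0.470 ± 0.121 RPKM in its Hist1h windows, and sub-cluster 4 had 0.370 ± 0.188.

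Sub-cluster 3 had 0.732, 0.813 and 0.631 RPKM in its Hist1h windows (mean 0.725 ± 0.091) and 1.06 ± 0.14 in the windows between. Its longest H3K36me3 run was 28 kb (2.28 ± 0.41 RPKM, 400 reads). It began inside Hist1h2be, crossed Hist1h1e and went on past the start of Hist1h1e. A second run of 20 kb without a Hist1h gene (2.28 ± 0.55 RPKM) followed before Hist1h2ac. Among the shorter runs, those of 6 kb and 4 kb held Hist1h2bc and Hist1h2bh.

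**Figure D4:**
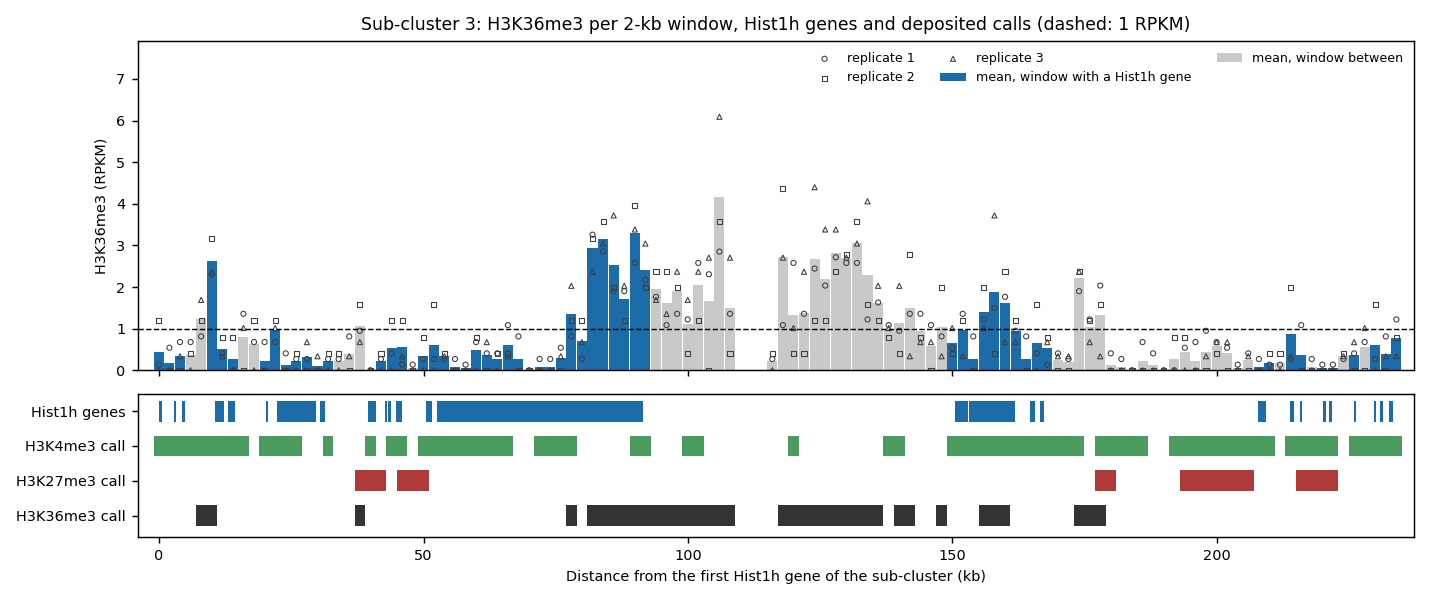
Sub-cluster 3, by distance in kb from its first Hist1h gene, drawn as for sub-cluster 1. H3K36me3 above 1 RPKM lies mainly from the 5′ side of Hist1h2be across Hist1h1e and the space that follows, where few windows are called for H3K4me3, and H3K27me3 is called in other stretches.

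By distance from the nearest Hist1h gene, for windows inside and outside the sub-clusters, the level was 0.568 ± 0.103 RPKM within 2 kb, 0.680 ± 0.128 at 2 to 4 kb, 0.778 ± 0.102 at 4 to 10 kb and 0.681 ± 0.067 at 10 to 20 kb. The stretches between sub-clusters 1 and 2 and between 2 and 3 were lower, at 0.385 RPKM each, and that between 3 and 4 was at 0.720 ± 0.128. Between 2 and 3 only 604 of 745 windows were valid, and 21.5% of these held no read, beside 4.74% of all valid windows. The part of sequence that cannot be mapped in this low level was not tested.

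Promoters are shown for a pair above the H3K36me3 threshold and for a pair with almost no reads, as the bases between both RefSeq starts (GRCm38.p6, plus strand). These bases lie in windows called for H3K27me3, and also for H3K4me3 except in the window of Hist1h2bn. The capitals mark the CCAAT box, the TATA box written as TATAAA, and the octamer ATTTGCAT known from H2B promoters, on either strand.
Hist1h2ak and Hist1h2bn (chr13:21753913-21754075): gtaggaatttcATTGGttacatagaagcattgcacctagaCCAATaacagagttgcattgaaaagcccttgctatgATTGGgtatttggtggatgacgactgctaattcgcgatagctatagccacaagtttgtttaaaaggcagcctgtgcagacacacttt
Hist1h2ae and Hist1h2bg (chr13:23571221-23571399): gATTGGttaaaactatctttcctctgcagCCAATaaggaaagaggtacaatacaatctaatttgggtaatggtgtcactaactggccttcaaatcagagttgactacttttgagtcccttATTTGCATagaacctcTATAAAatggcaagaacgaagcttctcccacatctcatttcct
RefSeq promoters of 300 bases were matched for 51 of 54 Hist1h genes. CCAAT was in 43 of them (84.3%, beside 37.4% of all 32851 promoters), TATAAA in 31 (60.8%, beside 13.6%) and ATTTGCAT in 10 (19.6%, beside 1.74%). CCAAT was in all 13 H2A and all 14 H2B promoters and in 3 of 11 H4 promoters, and the 10 promoters with ATTTGCAT were 5 of H2A and 5 of H2B genes. Of these 10 promoters 6 belong to 3 back-to-back pairs that share bases, so that the same octamer can be counted for both genes of a pair, and this holds for the other motifs too. These matches describe the letters only.

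The genes that act on this family were described from lists of their own. Among 12 genes for the transcription and 3′ processing of histone mRNA, 11 were above 1, beside 52.5% of all protein-coding genes. Their median level was 2.24 RPKM. Slbp, which encodes the stem-loop binding protein, measured 2.23, 2.06 and 3.18 RPKM (mean 2.49 ± 0.60). Npat, the coactivator of histone gene transcription, measured 1.98, 2.40 and 2.61 RPKM (mean 2.33 ± 0.32). Zfp473, a zinc finger protein of the U7 snRNP, and Cstf2, a cleavage factor, measured 2.65 ± 0.26 and 2.46 ± 0.83 RPKM. The lowest were Lsm10, a subunit of the U7 snRNP, at 0.987 ± 0.182, and the exonuclease gene Eri1 at 1.98 ± 0.15.

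Histone genes elsewhere fell into both ranges. Of 13 replication-dependent genes on other chromosomes 2 were above 1, beside 52.5% of all protein-coding genes and 22.0% of the short ones. Their median was 0.571 RPKM. An H3K4me3 window was present in 12, beside 85.4% of all protein-coding genes and 52.3% of the short ones. H3K27me3 was called in 0 windows of these 13 genes, beside 30.0% of all valid windows and 34.3% of windows of other short genes. Hist2h3b had 1.41 ± 0.40, Hist3h2a 1.27 ± 0.33 and Hist2h2bb 0.987 ± 0.631 RPKM, and the lowest were Hist2h3c2 (0.0905) and Hist2h2aa2 (0.170). Of 12 replication-independent genes 7 were above 1, which is near the 52.5% of all protein-coding genes, with a median of 1.09 RPKM. H2afv, a gene of the variant H2A.Z, had 2.88 ± 0.37, H1foo, the oocyte linker histone, 2.76 ± 0.48, and H2afy, a macroH2A gene, 2.52 ± 0.12 RPKM. H2afy2, the other macroH2A gene, had 0.465 ± 0.100 and the linker histone gene H1fx 0.810 ± 0.492 RPKM. The genes of these lists differ in length, and no test between lists was made.

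The labelled cell type was checked on marker genes. The oocyte genes Zp3, Gdf9 and Bmp15 had 2.28 ± 0.37, 1.84 ± 0.18 and 3.73 ± 1.03 RPKM. Of the granulosa cell genes, Inha and Fshr had 0.534 ± 0.357 and 0.353 ± 0.031, and Amh had 1.39 ± 0.68, with 2.17 RPKM in replicate 1. The libraries held 7888140, 2692510 and 3166564 reads in valid windows.

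Sequence shared between copies limited what could be measured. Of the 187 windows of the sub-clusters 20 were not valid, and in these at least 62.7% of 75-base stretches recurred elsewhere in the genome (median 96.5%), beside a median of 0.700% in the valid windows. Among valid Hist1h windows the median was 4.95% and the highest 51.8%, and in 19 of them more than 10% of the stretches recurred in another histone gene. Values of genes in such windows are uncertain. Leaving these windows out raised the mean to 0.723 RPKM. It also changed which genes were counted, since the 60 windows left held nearly all those of Hist1h2be and Hist1h1e. The part of recurring sequence in the low levels was therefore not tested.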

How the data were processed

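H3K36me3 ChIP-seq of 3 GV oocyte pools belonged to 1 group, without any contrast of conditions. After trimming, the authors mapped reads to GRCm38 (Bowtie2 2.2.9 per the submitters' processing notes), removed windows with extreme input and deposited RPKM values per 2-kb window. The removal of duplicate reads is not given in the sources used here. All values were whole multiples of a step for each library (100% whole within 0.01 reads), and reads were recovered from it. The scale in kb behind the name RPKM was not settled, and values are comparable because the windows have equal size. The second deposited table holds the authors' calls. Its H3K36me3 call equalled a mean RPKM above 1 in every valid window (0 differences), and windows it does not list were taken as unmarked.

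Here, genes came from GENCODE release M21, and a gene's level was the mean over valid windows that overlap it. Errors are the SD over 3 replicates. Whether the pools came from separate mice is not given in the sources used here, so p-values measure only the spread between these pools. Log2 ratios of mean RPKM within replicates, without pseudocount, were tested by flipping the signs of the replicate values in an exact permutation test (two-sided, smallest p 0.25) and adjusted by Benjamini-Hochberg over 3 contrasts. Poisson intervals of recovered reads and limits for counts of 0 (3 reads) cover counting error only, since PCR copies are not independent molecules. Named were the Hist1h genes above 1, the 5 lowest, the 5 with the largest spread, Hist1h1t, Hist1h2aa and Hist1h2ba, other genes of the span above 1 and their 3 lowest with at least 5 windows, and of each further list the 3 highest and 2 lowest with H1foo, Slbp and Npat. Other genes named, such as Hist1h2be, Hist1h4k and Hist1h2bp, were chosen after their values were seen. The members and lists were chosen with earlier results of these data known. Recurring stretches were exact matches of 75 bases on either strand of GRCm38. Scripts were tested on simulated data and used Python 3.11.15, numpy 2.4.6, pandas 2.3.3, scipy 1.17.1 and matplotlib 3.10.9.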

Additional observations from a re-analysis of the deposited data

How the results depend on the processing

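The contrast with all other protein-coding genes kept its direction under every alternative run. The log2 ratio to the windows between Hist1h genes turned to 0.43 when all windows from the first to the last gene were used and to 0.15 without the space between Hist1h1e and Hist1h2ac, and the ratio to short genes turned to 0.062 without Hist1h windows with over 10% of stretches in another histone gene and to 0.14 by window midpoints. The mean level of 0.639 RPKM became 0.764 by midpoints (39 windows), 0.723 without recurring windows, 0.782 in windows with at least 3 reads, 0.472 in coding windows, 0.496 without Hist1h2be and Hist1h1e, 0.492 with each gene counted once, 0.268 as a median over windows, and 0.310 and 0.487 from log2 values with pseudocounts of 0.1 and 1. The 5 genes above 1 became 2 of 17 by midpoints, 3 in coding windows, 2 and 1 at thresholds of 1.5 and 2, and 3 when each replicate had to pass. The 16.5% of windows above 1 became 23.1% by midpoints, 7.84% in coding windows, 7.59% at a threshold of 2, 10.1% with each replicate above 1 and 10.3% without Hist1h2be and Hist1h1e. H3K27me3 calls rose from 21.5% to 33.3% in coding windows. Without a replicate in turn, the ratio to the windows between ranged from -0.65 to -0.38, to other genes from -1.10 to -0.92 and to short genes from -0.16 to -0.054, and 4 to 6 genes were above 1. Coding windows and the settings that leave out named genes or spaces were chosen after seeing the data. Ratios of medians could not be computed, since the median Hist1h window was at 0 RPKM in a replicate. No paired analysis was possible because the samples form a single group with no other group to pair with, and the ratios were already taken within each replicate. With 3 replicates no contrast can reach a p below 0.25, and a median of 6 reads per gene sets no order among genes below 1.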

Other observations

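Other protein-coding genes lie among and between the histone sub-clusters. Of 48 with a value 8 were above 1, beside 52.5% of all protein-coding genes, and the median was 0.282 RPKM. The zinc finger genes Zfp322a (2.61 ± 0.46) and Zfp184 (1.58 ± 0.66), the butyrophilin gene Btn2a2 (2.49 ± 0.22), Trim38 (1.70 ± 0.13), the transporter gene Slc17a2 (1.67 ± 0.29), Abt1 (1.61 ± 0.48) and the vomeronasal receptor genes Vmn1r196 (1.61 ± 0.57) and Vmn1r201 (1.23 ± 0.29) had these levels in RPKM. Vomeronasal receptor genes of the Vmn1r family made up 35 of the 48, with a median of 0.191 RPKM, and 2 of them were above 1. The lowest genes with at least 5 windows were of that family, Vmn1r217 (0.0674), Vmn1r216 (0.0701) and Vmn1r209 (0.0858 RPKM). In the 35 genes 12 had an H3K4me3 window, beside 85.4% of all protein-coding genes.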
